A study of Mus musculus with 6 samples.

Results

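Aminoacyl-tRNA synthetases are the enzymes that join each amino acid to its transfer RNA. RNA sequencing of 4T1 cells, a line derived from a mouse breast cancer, gave the level of their transcripts in 3 libraries of BRQ-treated cells and 3 libraries of cells treated with DMSO, a solvent. The series title names a DHODH inhibitor, that is, an inhibitor of the mitochondrial enzyme that makes orotate for pyrimidine nucleotides, and the comparison asks what BRQ did to gene expression. The labels used here give no dose and no duration. All 6 titles carry the letters DHO, which are not explained, so a further treatment common to every library is possible. Nothing in the labels says whether libraries of a group came from separate cultures, so p-values measure the spread between these libraries, which may be technical. In such bulk RNA, fewer cells that make a transcript and less of it per cell cannot be told apart.

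The rule that chose the genes used symbol and description and no measured value, but was set with earlier results of these data known. The symbol had to follow the naming pattern of the synthetase genes, or be Aimp1 or Aimp2. The description had to name a tRNA synthetase or its complex. The rule gave 39 of the 18057 genes listed. They are 20 genes of enzymes named for the cytosolic set, 17 genes of mitochondrial enzymes and 2 scaffold genes. Of the 39, 21 have symbols that do not end in 2 and 18 have symbols that end in 2. The second set is the mitochondrial enzymes plus Aimp2, which acts in the cytosol.

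As background, each cell charges tRNA in both the cytosol and the mitochondria, and most amino acids have a separate nuclear gene for the enzyme of each compartment. Gars and Kars each encode the enzyme of both compartments. Eprs encodes a single protein that charges glutamate and proline, and phenylalanine is charged in the cytosol by an enzyme built from the products of Farsa and Farsb. Several cytosolic enzymes sit with the scaffolds Aimp1, Aimp2 and Eef1e1 in a multi-synthetase complex. Many cytosolic synthetase genes are targets of ATF4, the transcription factor of the amino acid response.

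Values are FPKM, fragments scaled by transcript length and by the size of the library, so levels may be compared between genes. Depth, recovered from the steps between FPKM values, was 30819822 to 33918166 reads on tested genes per library. The 38 members tested had a mean of 275 to 25534 reads per library. The epithelial markers Epcam, Cdh1, Cldn4 and 5 keratin genes were above 0 in every library, with a summed level of 1527 to 1572 FPKM under BRQ and 2013 to 2066 under DMSO. The lower sum lay mainly in the keratins, and Cdh1 averaged 170 FPKM under BRQ and 178 under DMSO. Epcam and Cldn4 were higher under BRQ, at 81.8 and 127 FPKM on average against 77.2 and 111. BRQ replicates 2 and 3 stood apart from BRQ replicate 1 in some transcripts of other cell types. The 10 macrophage markers summed to 67.6, 114 and 107 FPKM in BRQ replicates 1, 2 and 3, against 32.4 to 36.4 under DMSO, and all 10 were above 0 in every library. Lyz2 was at 3.56, 35.4 and 36.4 FPKM in BRQ replicates 1, 2 and 3, against 4.44 to 5.38 under DMSO. Cd68 was at 50.2, 61.2 and 53.3 FPKM, against 18.7 to 23.5, and Cd14 at 12.4, 15.1 and 13.8, against 6.13 to 6.64. BRQ replicate 1 thus also differed from DMSO in Cd68 and Cd14. Most of each macrophage sum lay in Lyz2, Cd68 and Cd14. Adgre1, Csf1r, C1qa, C1qb, C1qc, Ptprc and Mrc1 each averaged under 1 FPKM over the 6 libraries. The 10 hepatocyte markers summed to 18.1, 1.11 and 0.662 FPKM in BRQ replicates 1, 2 and 3, against 18.1 to 22.1 under DMSO. Alb was at 0 in BRQ replicate 3, and Ttr and Fga were at 0 in BRQ replicates 2 and 3. Results with BRQ replicate 1 as the only BRQ library are therefore given beside those from all 6.

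Cytosolic synthetase transcripts were mostly lower under BRQ, and mitochondrial ones moved either way. Testing used limma on log2(FPKM + 1), for the 10552 genes averaging 1 FPKM or more, and a call needed an adjusted p under 0.05. Of the 38 members tested, 14 were called higher and 16 lower, and 8 were not called. These counts stand against a background in which most genes moved: 82.4% of all tested genes were called, 48.7% higher and 33.7% lower, and the median gene had a log2 fold change of 0.12. The share of members called, 78.9%, lay near that background. Among the 20 cytosolic enzymes, 6 were called higher and 12 lower, with a median log2 fold change of -0.19. Among the 16 mitochondrial enzymes tested, 6 were higher and 4 lower, with a median of -0.019. After the 3 other scalings (median ratios, TMM and quantile normalization), which take off the shift of the median gene, the mitochondrial balance turned over, to 4 to 5 higher and 6 to 7 lower, and the cytosolic enzymes had 2 to 4 higher and 14 to 15 lower. By symbol, the 21 not ending in 2 had 7 higher and 12 lower (median -0.19), and the 17 tested that end in 2 had 7 higher and 4 lower (median 0.0014). The same scalings gave 2 to 4 higher and 14 to 15 lower for symbols not ending in 2, and 5 to 6 higher and 6 to 7 lower for those ending in 2. Relative to the median gene, the medians with all 6 libraries and no rescaling were -0.31 for symbols not ending in 2 and -0.11 for those ending in 2. Over all members the 3 scalings gave 7 to 10 higher and 21 lower, and 4250 to 4386 of all genes higher and 4348 to 4432 lower, and with BRQ replicate 1 as the only BRQ library 11 were higher and 16 lower.

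**Figure D1:**
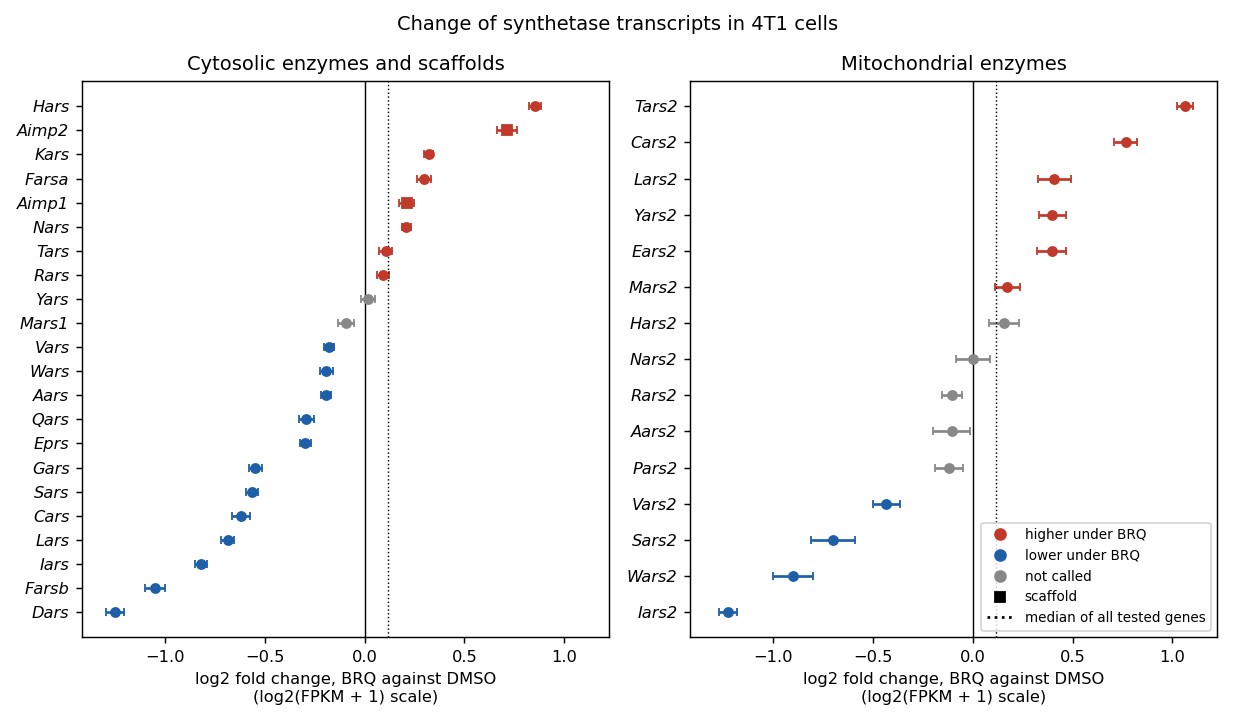
Log2 fold changes of 37 of the 38 tested members, BRQ against DMSO, on the log2(FPKM + 1) scale, with cytosolic enzymes (circles) and scaffolds (squares) at left and mitochondrial enzymes at right; bars are the standard error and the dotted line is the median of all tested genes, 0.12. Of 20 cytosolic enzymes 12 lie in the lower group, down to -1.25 for Dars, and the mitochondrial enzymes spread between -1.22 for Iars2 and 1.06 for Tars2.

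Levels differed between the compartments in each group. Cytosolic enzymes had mean levels of 7.60 to 254 FPKM under BRQ and 16.8 to 203 FPKM under DMSO, with Farsb lowest and Kars highest in each. Mitochondrial enzymes had 0.449 to 64.9 FPKM under BRQ and 0.997 to 48.4 FPKM under DMSO, with Lars2 highest in each. Summed over the 20 cytosolic enzymes, the level was 1551, 1523 and 1536 FPKM in the BRQ libraries and 1643, 1647 and 1640 FPKM in the DMSO libraries, a ratio of 0.935. Summed over the 17 mitochondrial enzymes it was 178, 197 and 184 FPKM under BRQ and 156, 166 and 160.0 FPKM under DMSO, a ratio of 1.16. The groups did not overlap in either sum. Much of the mitochondrial sum lies in Lars2 and Tars2, at 64.9 and 27.0 FPKM under BRQ against 48.4 and 12.4 under DMSO. Its ratio therefore does not describe the typical mitochondrial enzyme, for which the median log2 fold change was -0.019. The FPKM of all genes listed also summed higher under BRQ, to 413739 to 420687 against 374509 to 380140 under DMSO.

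The largest fall among cytosolic enzymes was that of Dars, which charges aspartate. It stood at 21.0, 19.97 and 21.4 FPKM under BRQ, against 50.6, 48.2 and 53.6 FPKM under DMSO. The DMSO libraries all lay above the BRQ libraries, and the level under BRQ was 2.44-fold lower (log2 fold change -1.25, SE 0.0453, limma adjusted p = 5.59e-09). Farsb, the beta subunit of phenylalanyl-tRNA synthetase, measured 8.005, 7.40 and 7.38 FPKM under BRQ and 17.4, 16.2 and 16.7 FPKM under DMSO. It was 2.21-fold lower (log2 fold change -1.05, SE 0.0501, limma adjusted p = 2.93e-08). Its partner Farsa, the alpha subunit, went the other way, with 71.3, 69.8 and 75.9 FPKM under BRQ and 59.3, 58.0 and 58.5 FPKM under DMSO (log2 fold change 0.30, SE 0.0355, limma adjusted p = 2.35e-05). The call of Farsa was lost after quantile normalization (0.05, adjusted p = 0.225, range over all alternatives 7.81e-08 to 0.225). These products form a single enzyme in equal number, and the ratio of their levels was 9.52 under BRQ and 3.50 under DMSO.

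Falls of 1.55-fold to 1.79-fold were found for the enzymes of isoleucine, leucine and cysteine. Iars stood at 32.04, 30.6 and 30.9 FPKM under BRQ and 55.3, 56.7 and 55.3 FPKM under DMSO. Lars stood at 29.996, 30.2 and 31.5 FPKM under BRQ and 49.2, 49.7 and 50.4 FPKM under DMSO. In neither gene did a BRQ library reach the lowest DMSO library. Cars had 41.1, 39.7 and 38.3 FPKM under BRQ and 61.1, 65.3 and 57.9 FPKM under DMSO. Their log2 fold changes were -0.82, -0.69 and -0.62, with limma adjusted p between 9.14e-09 and 6.7e-07. Sars, for serine, averaged 76.6 ± 1.29 FPKM under BRQ and 114 ± 2.80 under DMSO (SD, n = 3 each), and Gars, for glycine, averaged 89.3 ± 3.50 under BRQ and 131 ± 2.18 under DMSO. Eprs, for glutamate and proline, had 58.5, 59.0 and 58.6 FPKM under BRQ and 71.5, 73.6 and 71.8 FPKM under DMSO. Smaller falls, of -0.30 to -0.18 on the log2 scale, were called for Eprs and for Qars, Aars, Wars and Vars, which charge glutamine, alanine, tryptophan and valine. Groups did not overlap in any of these 5. Mars1, for methionine, had 33.9 ± 1.06 FPKM under BRQ and 36.2 ± 1.34 under DMSO, and was not called (log2 fold change -0.09, SE 0.0393, limma adjusted p = 0.0523). Of 16 alternatives, 8 called Mars1 lower (adjusted p 7.76e-05 to 0.174). Its exons overlap those of Ddit3 on the opposite strand, a gene that was 2.61-fold higher under BRQ, and without a stated strand setting reads of the pair cannot be told apart. Yars, for tyrosine, had 64.4 ± 2.20 FPKM under BRQ and 63.6 ± 1.83 under DMSO and was not called (log2 fold change 0.017, SE 0.0354), but the 3 other scalings called it lower (-0.22 to -0.11, adjusted p 0.000311 to 0.0157, range over all alternatives 0.000311 to 0.943).

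Hars, which charges histidine, rose most among cytosolic enzymes. It measured 77.6, 76.4 and 78.3 FPKM under BRQ and 41.4, 42.6 and 43.3 FPKM under DMSO. All BRQ libraries lay well above the DMSO libraries, at 1.83 times their mean (log2 fold change 0.85, SE 0.0301, limma adjusted p = 4.8e-09). Kars, for lysine, the most abundant member, had 258, 249.9 and 255 FPKM under BRQ and 204, 202 and 205 FPKM under DMSO (log2 fold change 0.32, SE 0.0234, limma adjusted p = 5.5e-07). Nars, for asparagine, had 174 ± 1.63 FPKM under BRQ and 151 ± 0.706 under DMSO (0.21), a call lost after quantile normalization (0.020, adjusted p = 0.37, range over all alternatives 1.03e-08 to 0.37). Tars and Rars, for threonine and arginine, were called higher by only 0.11 and 0.09. After the 3 other scalings, both had a negative log2 fold change, of -0.074 to -0.022 for Tars and -0.098 to -0.036 for Rars, and quantile normalization called Rars lower (adjusted p = 0.0108). Without BRQ replicates 2 and 3 neither was called (adjusted p = 0.0657 for Tars and 0.0758 for Rars, with ranges over all alternatives of 0.00154 to 0.519 and 0.0106 to 0.294). Without BRQ replicate 1 the call of Rars was lost (0.08, adjusted p = 0.0678), as it was without DMSO replicate 2 (0.06, adjusted p = 0.0721).

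**Figure D2:**
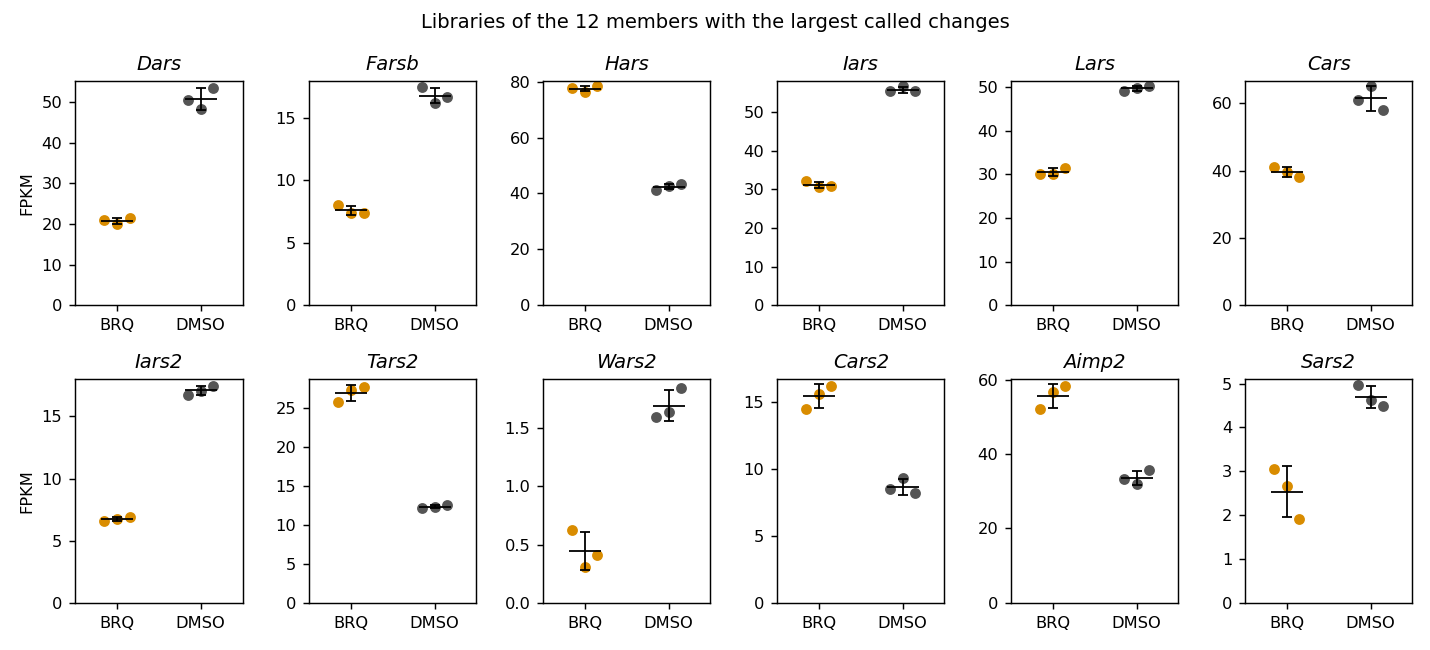
FPKM of each library for the 6 members with the largest called change among symbols not ending in 2 (top) and among symbols ending in 2 (bottom), BRQ at left and DMSO at right of each panel; points are libraries and bars the mean ± SD of 3. The groups are apart in all 12 panels, with Hars, Tars2, Cars2 and Aimp2 higher under BRQ and the other 8 lower.

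In the multi-synthetase complex the enzymes divided, and of the scaffolds Aimp2 was higher under every scaling. With its 3 scaffolds the complex had 5 genes higher and 5 lower of 11, but 2 higher and 6 to 7 lower after the 3 other scalings. The share called without rescaling, 90.9%, lay near the 82.4% of all tested genes. By direction it was 45.5% higher and 45.5% lower, against 48.7% and 33.7% of all tested genes. Of its 8 enzymes, Dars, Eprs, Iars, Lars and Qars were lower, Kars and Rars higher and Mars1 not called. Of the 12 cytosolic enzymes outside the complex 7 were lower, 4 higher and 1 not called. Aimp2, the scaffold that holds the complex together, stood at 52.0, 56.7 and 58.2 FPKM under BRQ and 33.3, 31.8 and 35.6 FPKM under DMSO. It was 1.66-fold higher with no overlap of the groups (log2 fold change 0.71, SE 0.0515, limma adjusted p = 5.18e-07). Aimp1 had 83.9, 87.4 and 79.9 FPKM under BRQ and 70.8, 73.0 and 72.9 FPKM under DMSO (0.21, SE 0.036, limma adjusted p = 0.00033). Its call was lost after median-ratio and TMM scaling (0.08 in each), and quantile normalization gave -0.029, with adjusted p between 4.63e-05 and 0.401 over all alternatives. Eef1e1, which is not among the 39 genes because its symbol has another form, had 40.1, 41.9 and 36.8 FPKM under BRQ and 33.8, 33.4 and 34.1 FPKM under DMSO (0.22, SE 0.046, limma adjusted p = 0.00119). The call of Eef1e1 was lost after each of the 3 other scalings (0.031 to 0.097, adjusted p 0.0760 to 0.525, range over all alternatives 0.000166 to 0.525).

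Among mitochondrial enzymes, Tars2, for threonine, had the largest rise. It measured 25.8, 27.4 and 27.7 FPKM under BRQ and 12.2, 12.3 and 12.6 FPKM under DMSO, 2.18-fold higher with no overlap (log2 fold change 1.06, SE 0.042, limma adjusted p = 9.05e-09). Cars2, for cysteine, had 14.5, 15.6 and 16.3 FPKM under BRQ and 8.54, 9.31 and 8.18 FPKM under DMSO, 1.78-fold higher (0.77, SE 0.0595, limma adjusted p = 8.95e-07). Lars2, for leucine, the most abundant mitochondrial member, had 59.6, 75.4 and 59.8 FPKM under BRQ and 45.6, 50.8 and 48.9 FPKM under DMSO. BRQ replicate 2 lay above the other BRQ libraries, and the lowest BRQ library was still above the highest DMSO library (0.41, SE 0.0817, limma adjusted p = 0.000938). The call of Lars2 was lost after quantile normalization (0.17, adjusted p = 0.0723, range over all alternatives 8.56e-08 to 0.0723). Yars2, for tyrosine, averaged 17.3 ± 0.76 FPKM under BRQ and 12.9 ± 1.29 under DMSO (0.40). Ears2, for glutamate, had 2.22, 2.18 and 2.36 FPKM under BRQ and 1.48, 1.56 and 1.39 FPKM under DMSO (0.39, SE 0.0709, limma adjusted p = 0.000461). Mars2, for methionine, was called at 5.53 ± 0.416 FPKM under BRQ and 4.78 ± 0.0933 under DMSO (0.17, limma adjusted p = 0.0245). Of 16 alternatives, 8 did not call it, leaving out BRQ replicate 3 (0.13, adjusted p = 0.0956), DMSO replicate 2 (0.16, adjusted p = 0.0676) or BRQ replicates 2 and 3 together (0.16, adjusted p = 0.116) among them.

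Iars2, Wars2, Sars2 and Vars2 were the mitochondrial enzymes called lower. Iars2, for isoleucine, had 6.58, 6.72 and 6.92 FPKM under BRQ and 16.7, 17.0 and 17.5 FPKM under DMSO. It was 2.53-fold lower, and the spread within each group was small beside the gap (log2 fold change -1.22, SE 0.0445, limma adjusted p = 5.7e-09). Wars2, for tryptophan, was listed at 0.626, 0.307 and 0.414 FPKM under BRQ and 1.60, 1.63 and 1.85 FPKM under DMSO. These values rest on 172, 82 and 114 reads under BRQ and 437, 409 and 505 reads under DMSO. Its mean was 3.77-fold lower, while its log2 fold change was -0.90 (SE 0.0993, limma adjusted p = 1.29e-05), because the added 1 FPKM weighs on so low a gene. Sars2, for serine, had 3.05, 2.66 and 1.90 FPKM under BRQ and 4.96, 4.63 and 4.48 FPKM under DMSO (-0.70, SE 0.11, limma adjusted p = 0.000189). Vars2, for valine, averaged 8.52 ± 0.282 FPKM under BRQ and 11.9 ± 1.12 under DMSO (-0.43). Aars2, Hars2, Nars2, Pars2 and Rars2 were not called, with log2 fold changes of -0.12 to 0.16 and SE of 0.0494 to 0.094. The 3 other scalings called Rars2 lower (-0.22 to -0.19, adjusted p 0.00213 to 0.00404, range over all alternatives 0.00213 to 0.209). Pars2 was called lower after median-ratio and TMM scaling (-0.21 and -0.22, adjusted p 0.0161 and 0.0151, range over all alternatives 0.0151 to 0.837). Hars2 was called higher without DMSO replicate 2 (0.22, adjusted p = 0.0220, range over all alternatives 0.0220 to 0.619). Fars2, for phenylalanine, fell below the level for testing. It stood at 0.494, 0.58 and 0.53 FPKM under BRQ and 1.13, 1.03 and 0.824 FPKM under DMSO, with no overlap, and was called lower when no filter was applied (-0.38, limma adjusted p = 0.00331).

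Of the 38 tested members, 5 passed the threshold with a change of mean FPKM of at least 2-fold, namely Tars2 upward and Dars, Farsb, Iars2 and Wars2 downward. That is 13.2%, against 14.9% of all tested genes. In 32 members (84.2%) the BRQ and DMSO values did not overlap, against 83.7% of all tested genes. Over the 6 libraries, the genes whose log2 levels correlated best with those of Dars, the member with the largest change on the log2(FPKM + 1) scale, were Abce1, Nudcd3 and Sf3b1 (Pearson's r of 0.9996 to 0.9998), a likeness that mainly carries the gap between the groups. By the ratio of mean FPKM, Wars2 and Iars2 changed more than Dars (3.77-fold and 2.53-fold against 2.44-fold).

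The enzymes of a single amino acid moved together in some pairs and apart in others. Pairing each mitochondrial enzyme with its cytosolic counterpart gave 18 pairs, since Eprs serves in 2 and Fars2 was set against each of the subunits Farsa and Farsb. Cytosolic enzyme fell and mitochondrial enzyme rose in 3 pairs: Cars with Cars2, Lars with Lars2 and Eprs with Ears2. In 4 pairs, Iars with Iars2, Sars with Sars2, Vars with Vars2 and Wars with Wars2, both fell, and for threonine both were called higher, though Tars only by the small margin given above. Among pairs with each gene tested, none had its cytosolic enzyme called higher and its mitochondrial enzyme called lower. Fars2 was not tested, and without a filter Farsa was called higher (adjusted p = 0.000476) and Fars2 lower (adjusted p = 0.00331). By group means, the cytosolic level exceeded the mitochondrial level in all 18 pairs under DMSO. In DMSO replicate 2, however, Lars was at 49.7 FPKM and Lars2 at 50.8. Under BRQ the cytosolic mean was the higher in all but leucine, where the ratio of Lars to Lars2 was 0.471 under BRQ and 1.03 under DMSO. The ratio of Cars to Cars2 was 2.57 under BRQ and 7.08 under DMSO. The ratio of Hars to Hars2 was higher under BRQ, at 8.98 against 5.54 under DMSO, and so was that of Wars to Wars2, at 87.9 against 26.7 under DMSO. Taken on the log2(FPKM + 1) scale within each library, the ratio was lower in every BRQ library than in any DMSO library in 9 pairs, higher in every one in 7 and overlapped for alanine and serine. Among single tested genes 83.7% had groups that did not overlap, and the share for pairs of other genes was not computed. An exact two-sided permutation test of 3 against 3 libraries cannot go below p = 0.1, and it gave that value in each of the 16 pairs that did not overlap.

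**Figure D3:**
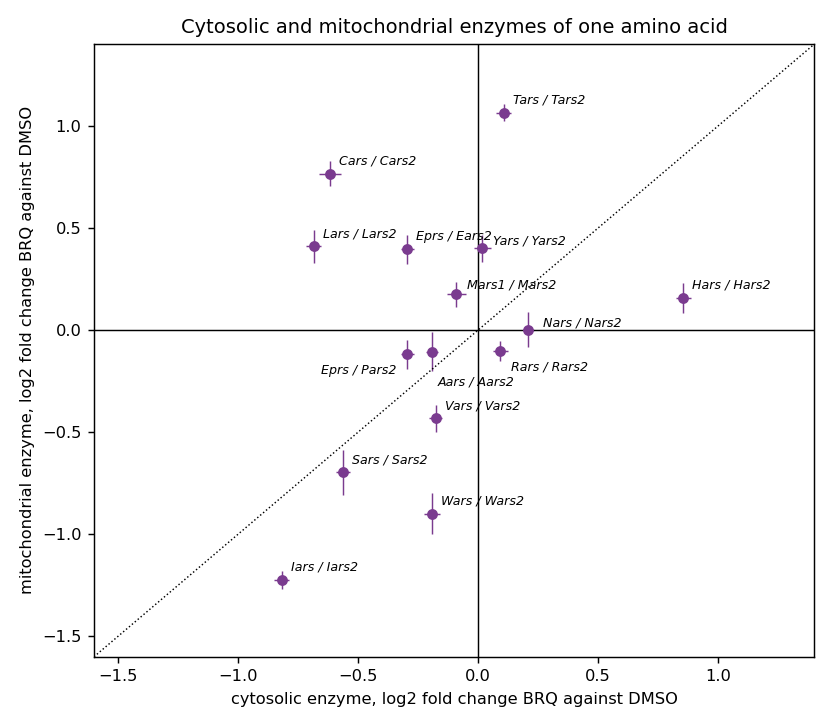
Log2 fold change (BRQ against DMSO) of the cytosolic enzyme on the x axis and of the mitochondrial enzyme for the same amino acid on the y axis, for 15 pairs in which each gene was tested; bars are standard errors and the dotted line marks equal change. Cars with Cars2, Lars with Lars2 and Eprs with Ears2 lie in the upper left, where the cytosolic enzyme is lower and the mitochondrial one higher, and no pair has a cytosolic enzyme called higher with a mitochondrial enzyme called lower.

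Synthetases belong to 2 structural families, class I and class II, that carry unrelated catalytic folds, and this grouping was not used to choose the genes. Of the 9 cytosolic enzymes of class I, 6 were lower, 1 (Rars) was higher and 2 were not called. The 10 cytosolic genes of class II divided evenly, with 5 lower and 5 higher, Dars and Farsb at one end and Hars at the other. Eprs, whose protein holds a domain of each class, was lower. Of the 9 mitochondrial enzymes of class I, 5 were higher, 3 lower and 1 not called, whereas 5 of the 7 tested of class II were not called. Of all tested genes, 48.7% were called higher and 33.7% lower. After each of the 3 other scalings the higher calls of Rars, Tars and Mars2 were lost, and Mars1, Yars and Rars2 were called lower. Median-ratio and TMM scaling also called Pars2 lower, and quantile normalization lost the calls of Farsa, Nars and Lars2. The counts by structural class therefore depend on the scaling. They are descriptions of small groups, made with the values in view, and carry no test.

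Longer cytosolic synthetase genes had lower fold changes. The genomic span, the distance between the ends of a gene, was taken from the GENCODE M21 annotation, which is on another mouse build than the one the authors used. The 16 members called lower had a median span of 42.2 kb, the 14 called higher 17.6 kb and the 8 not called 22.7 kb, against 23.4 kb for all tested genes with a span. Across the 20 cytosolic enzymes Spearman's rho of span with log2 fold change was -0.71, across the 16 mitochondrial enzymes -0.047, and across 10298 tested genes -0.50. Genes share libraries and are not independent replicates, so these are descriptions. The median span of the 2 sets was nearly equal, at 25.3 kb for cytosolic and 25.1 kb for mitochondrial enzymes. Among long genes, Dars (53.7 kb), Farsb (70.9 kb), Iars2 (44.7 kb) and Wars2 (98.1 kb) fell, whereas Lars2 (95.7 kb) rose and Nars2 (113 kb) was not called. What part span plays in the changes was not tested.

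**Figure D4:**
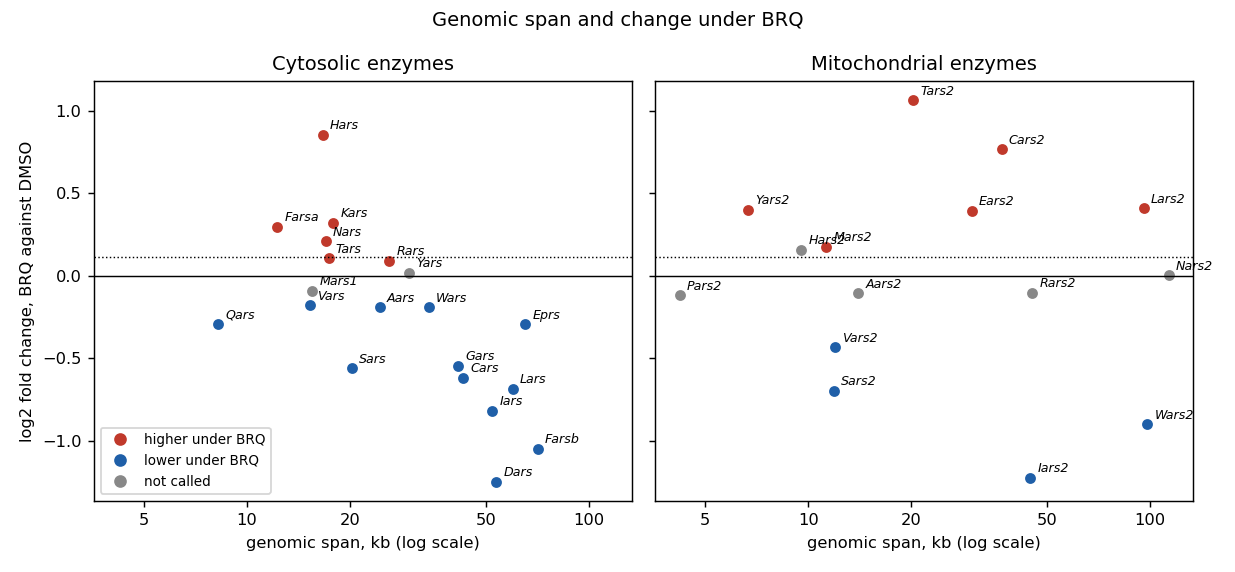
Genomic span in kb (log axis) against log2 fold change, BRQ against DMSO, for the 20 cytosolic enzymes at left and 15 of the 16 tested mitochondrial enzymes at right, coloured by call; the dotted line is the median of all tested genes. Cytosolic points descend with span (rho -0.71), and rho over all 16 mitochondrial enzymes was -0.047.

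Cytosolic synthetases reported to respond to ATF4 were mostly lower under BRQ. Of these 13 cytosolic genes 9 were lower (Iars most, at -0.82), 2 higher (Nars and Tars) and 2 not called, with a median log2 fold change of -0.19. Of the other 7 cytosolic genes 3 were lower and 4 higher, with a median of 0.092. After the 3 other scalings the first set had 11 lower and 0 to 1 higher, and the other 7 genes had 3 to 4 lower and 2 to 3 higher, with a median of -0.098 to -0.036. Of 27 tested genes of the ATF4 amino acid response, 14 were lower and 11 higher (15 lower and 8 to 9 higher after the 3 other scalings), with a median of -0.18. Of all tested genes, 33.7% were called lower and 48.7% higher. Lower calls without rescaling made up 69.2% of the 13 genes, 42.9% of the other 7 and 51.9% of the 27. Higher calls made up 15.4%, 57.1% and 40.7%. Atf4 had 139, 136 and 131 FPKM under BRQ and 153, 162 and 148 FPKM under DMSO (-0.18, SE 0.0369, limma adjusted p = 0.00102). Asns, the asparagine synthetase and a classical ATF4 target, chosen after its values were seen, had 82.4, 79.8 and 76.6 FPKM under BRQ and 109, 114 and 109 FPKM under DMSO. The largest rise in this list was that of Ddit3, which encodes the stress factor CHOP, with 62.6, 67.0 and 64.5 FPKM under BRQ and 25.0, 25.2 and 24.3 FPKM under DMSO (1.35). The largest fall was that of Slc7a11, a cystine importer, with 0.26 ± 0.0487 FPKM under BRQ and 1.82 ± 0.117 under DMSO (-1.16).

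Promoter sequences of 29 of the 39 genes were found by gene identifier among RefSeq promoters of the mouse reference (build GRCm38.p6), each a window of 250 bases before and 50 after the start site. Genes with none included Cars, Hars, Hars2, Lars, Nars, Pars2, Rars, Vars and Wars. The element to which ATF4 binds with C/EBP partners was searched as TGATGNAA, on both strands. It was present in 5 of the 29 genes (17.2%), against 4.51% of all 27025 genes with a promoter, and in 5 of the 8 genes of the ATF4-responsive set with a window. None of the 14 mitochondrial genes with a window held it. Of the matches, 5 are shown in 30 bases each, read 5′ to 3′ on the strand of the gene, with the match in capitals, because they mark which promoters of the set carry the element.
Aars, chr8:111033840-111033869, plus strand: agcgggtcactTTTCATCAgagcgctctga
Gars, chr6:55037960-55037989, plus strand: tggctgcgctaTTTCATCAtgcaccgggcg
Iars, chr13:49682126-49682155, plus strand: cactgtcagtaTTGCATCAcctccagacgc
Tars, chr15:11399655-11399684, minus strand: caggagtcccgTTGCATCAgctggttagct
Yars, chr4:129189895-129189924, plus strand: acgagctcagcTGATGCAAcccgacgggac
The element lay on the strand opposite to the gene in Aars, Gars, Iars and Tars and on the strand of the gene in Yars. Of these 5 genes Aars, Gars and Iars were lower under BRQ (-0.19, -0.55 and -0.82), Tars was 0.11 higher and Yars was not called (0.017). After the 3 other scalings all 5 had a negative log2 fold change, as given above for Tars and Yars. A match describes letters in a window and says nothing of whether a factor bound there.

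Genes near the synthetases in function showed a different balance. The background was 48.7% of all tested genes called higher and 33.7% lower. Of 10 tested synthetase relatives, editing and selenocysteine genes, 9 were higher and 1 lower, with a median log2 fold change of 0.67 (7 higher and 1 lower after the 3 other scalings, and 8 higher and 0 lower with BRQ replicate 1 alone). The largest rise was that of Prorsd1, named for a domain shared with prolyl-tRNA synthetase, with 5.56, 6.002 and 5.34 FPKM under BRQ and 2.03, 1.43 and 1.21 FPKM under DMSO (1.39, SE 0.108, limma adjusted p = 9.18e-07). Tarsl2, a further cytosolic threonyl-tRNA synthetase named after its values were seen, had 17.8 FPKM under BRQ and 9.69 under DMSO on average (0.81). The gene called lower was Dtd1, whose product removes D-amino acids from tRNA (-0.16, limma adjusted p = 0.0315), with groups that overlapped. Its call was lost without a filter, with limma-voom, and without BRQ replicate 2, BRQ replicate 3, DMSO replicate 1 or DMSO replicate 3 (-0.16 to -0.12 with one left out, adjusted p 0.0711 to 0.116, range over all alternatives 0.00157 to 0.455).

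In mitochondrial translation, 8 of 14 tested partners and factors were higher (57.1%) and 6 lower (42.9%), against 48.7% and 33.7% of all tested genes. Their median was 0.44, although the genes moved both ways. The 3 other scalings also gave 8 higher and 6 lower. Subunits of the amidotransferase that makes glutaminyl-tRNA in mitochondria, where no glutaminyl-tRNA synthetase gene is known, moved in opposite directions. Gatc had 28.1, 28.8 and 29.8 FPKM under BRQ and 12.5, 12.6 and 13.7 FPKM under DMSO (1.10, SE 0.046, limma adjusted p = 1.25e-08). Gatb had 0.99, 1.38 and 0.958 FPKM under BRQ and 2.79, 2.65 and 2.67 FPKM under DMSO (-0.82, SE 0.089, limma adjusted p = 1.15e-05). Neither gene had overlapping groups, but Gatb lay near the 1 FPKM filter under BRQ. Qrsl1, for a further subunit and named after its values were seen, averaged 5.28 FPKM under BRQ and 6.41 under DMSO. It was called lower (-0.25, SE 0.0823, limma adjusted p = 0.0183).

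Of 27 genes of tRNA processing and modification, 12 were higher (44.4%) and 9 lower (33.3%), near the 48.7% and 33.7% of all tested genes. Their median was 0.10, and the 3 other scalings gave 12 higher and 11 lower. Clp1, an RNA kinase of the tRNA splicing machinery, averaged 13.7 ± 0.416 FPKM under BRQ and 6.16 ± 0.054 under DMSO (1.04). Thg1l, which adds a guanylate to the start of histidine tRNA and so prepares the substrate of Hars, averaged 0.805 ± 0.216 FPKM under BRQ and 3.18 ± 0.429 under DMSO (-1.21, limma adjusted p = 2.47e-06), while Hars itself rose. Of 8 cytosolic elongation and termination factors 3 were higher (37.5%) and 5 lower (62.5%), with a median of -0.24 (2 higher and 5 lower after the 3 other scalings). Eef1b2 and Eef1g, subunits of the exchange factor to which valyl-tRNA synthetase binds, went opposite ways: Eef1b2 averaged 335 ± 5.07 FPKM under BRQ and 285 ± 4.11 under DMSO, and Eef1g averaged 483 ± 5.43 FPKM under BRQ and 717 ± 16.5 under DMSO.

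When BRQ replicate 1 alone stood for BRQ, its spread being taken from the DMSO libraries, 27 of the 30 calls among members were made in the same direction, the exceptions being Mars2, Rars and Tars. The part of the macrophage and hepatocyte transcripts in the other libraries was not tested further. Exons of 12 members overlap those of another protein-coding gene in GENCODE M21, so part of their reads may be shared or left uncounted. Among them are Hars with Hars2, Iars2 with Rab3gap2, Farsb with Sgpp2, Aimp2 with Eif2ak1 and Cars2 with Naxd, all on opposite strands. Aars overlaps Exosc6 on the same strand.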

How the data were processed

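Per the labels' protocols, total RNA was isolated with TRIzol and Illumina's standard library preparation followed. The submitters' processing notes list fastp, HTSeq and, as mouse build, GRCm39. Aligner, annotation, strand setting and versions: not given in the sources used here. The authors deposited FPKM for 18057 genes, with replicates not pooled. The table held 8 further columns that match no sample analysed here, and these were not used. The 10552 genes that averaged 1 FPKM or more entered a two-sided limma test (version 3.58.1, R 4.3.3, trended prior, no covariates) of log2(FPKM + 1), and p-values were adjusted across them by Benjamini and Hochberg's method, with 0.05 as threshold. This scale understates changes of low genes; n-fold changes are ratios of mean FPKM. Whole reads, within 0.01 reads and up to a common divisor per gene, were recovered from the FPKM steps for all 10552 tested genes (100% of values) and used for depth and for limma-voom, which called 5173 genes higher and 3607 lower. Recovery and tests were tested on simulated data. Groups and replicate numbers came from the sample titles.

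The members, the 8 gene lists and the tests were chosen with earlier results of these data known, so none is independent support. Values in every library are given for the 6 called members with the largest change in each symbol class, for scaffolds and for pairs called in opposite directions; from other lists the largest rise and fall are named. List entries were matched by symbol or by another symbol of the same gene identifier, and 2 entries were not in the table. Pairs were tested by an exact permutation test in scipy 1.17.1. A mitochondrial member is counted in the totals but not reported here singly, and a promoter match is not reported here.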

Additional observations from a re-analysis of the deposited data

How the results depend on the processing

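Over 16 alternatives the count of members called higher was 7 to 14 and of those called lower 15 to 21. Quantile normalization moved the count of higher members by over 1.5 times (7), and no other alternative did. Of the 30 calls, 26 were made in the same direction after median-ratio scaling, 26 after TMM scaling and 23 after quantile normalization. The other alternatives kept 27 to 30 of those they tested. The median log2 fold change of members whose symbol does not end in 2 was -0.32 after median-ratio and TMM scaling and -0.40 after quantile normalization, and -0.19 to -0.17 with a library left out. The median of members whose symbol ends in 2 was -0.073 after median-ratio scaling, -0.074 after TMM scaling, -0.089 after quantile normalization, -0.019 without a filter or with Aimp2 among the cytosolic genes, 0.17 with a filter at 5 FPKM, which tests fewer genes, and 0.015 to 0.079 with a library left out. That filter left 9 of the mitochondrial partners called, against 14.

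Signs reversed for members with small changes. After median-ratio, TMM and quantile scaling in turn, Nars2 gave -0.073, -0.074 and -0.089, Rars -0.036, -0.038 and -0.098, Tars -0.022, -0.025 and -0.074 and Yars -0.11, -0.11 and -0.22. Aimp1 gave -0.029 after quantile normalization. Aars2 gave 0.053 without BRQ replicates 2 and 3. With a library left out, Nars2 gave -0.051 to 0.058 and Yars -0.0098 to 0.038. The cause was not tested. With the replicate number as a block, 14 members were higher and 17 lower, Mars1 being added, and all 30 calls were kept. Same-numbered libraries deviated with correlations of -0.0345 to 0.00398, so no shared deviation was seen. Whether they shared a culture or a batch is not given in the labels. Fars2, at 0.494 to 1.13 FPKM, was left out by the filter on low values.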
